A study of Mus musculus with 24 samples.

Results

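Pmaip1 and Tnfrsf10b, a pair of death genes that p53 is known to induce, were followed in skin and lung of irradiated mice. They were taken as the probes whose only gene symbol in the platform annotation was Pmaip1 (Entrez gene 58801) or Tnfrsf10b (Entrez gene 21933). Each of these 2 genes, of 5908 genes with a symbol, had 1 probe. No array held either probe at a ratio of exactly 0 or at the limit of the deposited values. Irradiated groups were female mice of 12 to 13 weeks from 3 inbred strains, C57BL/6J, A/J and C3H/HeMs, without a transgene or deletion in the labels. The hind leg received a single local dose of 30 Gy and the thorax 10 Gy, both as gamma rays. Skin of the leg or lung was taken 1 h, 12 h and 72 h later, and the controls were untreated mice of the same strains. Each strain, tissue and time had 1 array of RNA pooled from 3 mice, so a group of 3 arrays held 3 strains. As the level of each strain was fitted, p-values measure how far changes varied between strain pools and not the spread between animals.

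When DNA breaks, p53 is stabilised and switches on genes that stop the cell cycle, repair DNA or kill the cell. Pmaip1 encodes Noxa, a BH3-only protein of the Bcl-2 family that binds Mcl-1 and thereby favours the opening of the mitochondrial outer membrane. Tnfrsf10b encodes the death receptor of mouse for the ligand Trail, often called DR5, which recruits Fadd and caspase-8 at the cell surface. The pair therefore stands for the mitochondrial and the receptor route into apoptosis.

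Levels are log2 ratios of a sample to a common reference, a mix of commercial RNA of 10 organs, centred on the median of each array. A difference of 1 on this scale is 2-fold. Skin RNA carried Cy5 and lung RNA Cy3, so tissue and dye cannot be told apart when levels are set across tissues, while changes within a tissue share the dye. As markers of the labelled tissues, the mean level of 5 epidermal genes lay between 4.55 and 5.90 in skin and between -2.52 and -1.35 in lung, and that of 3 lung epithelial genes lay between -5.41 and -4.58 in skin and between 1.74 and 3.44 in lung. The direction of the ratios was read from tissue markers together with the dyes, so these levels describe the arrays and do not check that direction. Among the lung arrays 4 stood apart, A/J at 12 h and 72 h and C3H/HeMs at these times. They correlated with the other 8 lung arrays at 0.80 to 0.89 over all features, where those 8 correlated among themselves at 0.90 to 0.96, and they held 115 to 674 ratios of exactly 0 against 1 to 23. The main lung values are given with and without them. Without them, lung at 12 h and at 72 h was C57BL/6J alone. The tissues are mixtures of cells, and in such bulk samples fewer cells of a type and less RNA per cell cannot be told apart. All times of a tissue were compared with the same 3 control arrays.

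**Figure D1:**
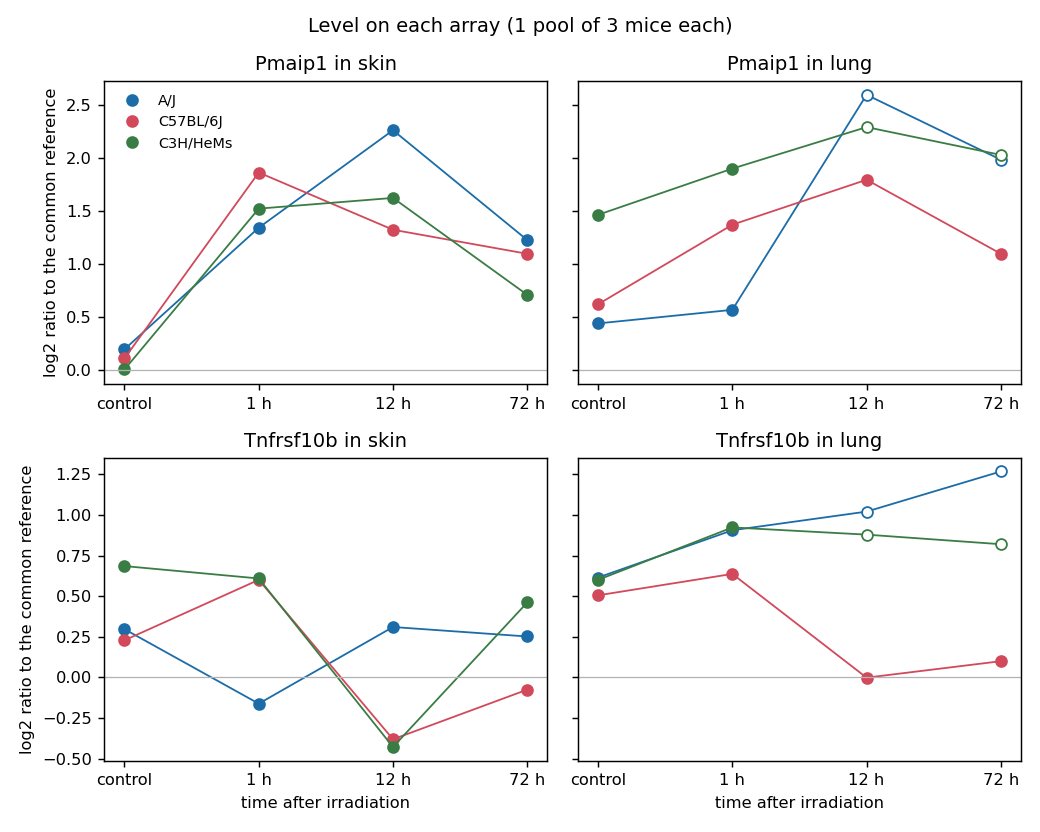
Level of Pmaip1 (top) and Tnfrsf10b (bottom) on each of the 24 arrays, as log2 ratio to the common reference against time after irradiation, with a colour for each strain and skin left of lung. Open circles are the 4 lung arrays that stood apart. All 9 irradiated skin arrays held Pmaip1 above the 3 skin controls, whose highest level was 0.20, while Tnfrsf10b overlapped its controls in all groups but lung at 1 h. The rows have different vertical scales.

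Pmaip1 was higher in every irradiated skin pool than in the untreated pool of its strain. Its levels in A/J skin were 0.20 in the control, 1.34 at 1 h, 2.26 at 12 h and 1.23 at 72 h. In C57BL/6J skin they were 0.11 in the control, 1.86 at 1 h, 1.32 at 12 h and 1.10 at 72 h. In C3H/HeMs skin they were 0.0083 in the control, 1.52 at 1 h, 1.62 at 12 h and 0.71 at 72 h. The irradiated and control groups did not overlap: the lowest irradiated pool, C3H/HeMs at 72 h, lay above the highest control, A/J. Of 8750 features, 0.263% had all 9 irradiated skin arrays above the 3 controls, and 1.27% had all 9 above the control of their own strain. The highest level was reached at 1 h in C57BL/6J and at 12 h in A/J and C3H/HeMs.

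The Pmaip1 level was at least 2-fold above the own control in 7 of 9 skin pools, all 3 at 1 h, all 3 at 12 h and A/J at 72 h. All 3 strains reached 2-fold for 0.103% of features at 1 h and 0.251% at 12 h. The fold over the own control ran from 2.21 to 3.36 at 1 h, from 2.32 to 4.18 at 12 h and from 1.63 to 2.04 at 72 h. The fitted log2 change was 1.47 ± 0.26 at 1 h (SE, n = 3 pools per group), with an unadjusted p of 0.00023 and an adjusted p of 0.503 by limma. At 12 h it was 1.63 ± 0.26 (unadjusted p = 0.000103, adjusted p = 0.144 by limma), and at 72 h it was 0.91 ± 0.26 (unadjusted p = 0.0061, adjusted p = 0.650 by limma). Over the 9 irradiated against the 3 control pools the log2 change was 1.34 ± 0.21, a 2.52-fold higher level, with a 95% interval of 0.86 to 1.81.

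No feature passed the adjusted threshold of 0.05 in skin at any time (0.0% higher and 0.0% lower at 1 h, 12 h and 72 h by limma). At an unadjusted p under 0.05, 1.87% of features were higher at 1 h, 2.99% at 12 h and 3.95% at 72 h, Pmaip1 each time among them. Its unadjusted p of 0.0001 for irradiated against control skin ranked first of the 8750 features, while its adjusted p was 0.464. By size of the rise it ranked 13 in that comparison, and by p it ranked 3 at 1 h, 6 at 12 h and 73 at 72 h. The genes were chosen with earlier results of these data known, so these ranks only describe the arrays. Markers of other kinds of cell were set beside the Pmaip1 levels, and none of them passed the test. The mean level of 7 neutrophil, macrophage and monocyte genes lay between 0.44 and 1.58 at 12 h, against -0.17 to 0.37 in the controls, with 6 of 7 above 0 in fitted change. The 7 genes of proliferating cells lay between -0.65 and -0.40 at 12 h, against 0.08 to 0.58 in the controls, with 0 of 7 above 0. The 5 skeletal muscle genes lay between 0.04 and 0.96 at 12 h, against -0.05 to 2.42 in the controls, within whose range they fell, with 1 of 5 above 0. The 7 B cell genes lay between -1.95 and 0.12 at 12 h, against -1.50 to -1.39 in the controls. In fitted change 5 of 7 were above 0. The 7 T and NK cell genes lay between -0.60 and 0.20, against -0.36 to -0.13, with 2 of 7 above 0. The 5 endothelial genes lay between -1.34 and -0.47, against -1.42 to -1.02, with 3 of 5 above 0. In these lists the highest 12 h pool lay above all controls and the lowest did not. The part of any list in the Pmaip1 difference was not tested. At 1 h the neutrophil, macrophage and monocyte genes lay between -0.14 and 0.68 and overlapped the controls.

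In lung, Pmaip1 was again above the own control in all 9 irradiated pools, with smaller and less even differences. In A/J lung the levels were 0.44 in the control, 0.57 at 1 h, 2.60 at 12 h and 1.98 at 72 h. In C57BL/6J lung they were 0.62 in the control, 1.37 at 1 h, 1.80 at 12 h and 1.10 at 72 h. In C3H/HeMs lung they were 1.47 in the control, 1.90 at 1 h, 2.29 at 12 h and 2.03 at 72 h. The C3H/HeMs control lay above the other controls, above A/J at 1 h and above C57BL/6J at 1 h and 72 h, so the groups overlapped at 1 h and at 72 h. At 12 h all 3 irradiated pools lay above all 3 controls, as they did for 6.39% of features.

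All 9 irradiated lung arrays lay above the own control for 2.27% of features. Without the 4 arrays that stood apart, Pmaip1 was above it in 5 of 5 arrays, as were 7.05% of features. Pmaip1 reached 2-fold in 3 of 9 lung pools, A/J at 12 h and 72 h and C57BL/6J at 12 h, and in 1 of 5, C57BL/6J at 12 h, without the 4 arrays. The fold ran from 1.09 to 1.68 at 1 h, from 1.77 to 4.45 at 12 h and from 1.39 to 2.91 at 72 h, with A/J lowest at 1 h and highest at both later times. The fitted log2 change was 0.44 ± 0.33 at 1 h (SE, n = 3 pools per group, unadjusted p = 0.216, adjusted p = 1.00 by limma). At 12 h it was 1.38 ± 0.33 (unadjusted p = 0.0023, adjusted p = 0.274 by limma), and at 72 h it was 0.86 ± 0.33 (unadjusted p = 0.028, adjusted p = 0.362 by limma).

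Without the 4 lung arrays that stood apart, the log2 change of Pmaip1 was 1.02 at 12 h and 0.32 at 72 h, with only C57BL/6J left there. With them as a block it was 0.93 at 12 h and 0.41 at 72 h. Over all irradiated lung pools the log2 change was 0.89 ± 0.27, and 0.59 in either of these fits. At the adjusted threshold, 0.0114% of features were higher in lung at 1 h, 0.114% at 12 h and 0.0914% at 72 h, Pmaip1 not among them, and 0.0%, 0.0% and 0.0229% were lower. At an unadjusted p under 0.05, 1.27% were higher at 1 h, 6.98% at 12 h and 6.72% at 72 h, Pmaip1 among them at 12 h and 72 h. In the same lungs the mean level of the 7 B cell genes lay between -1.39 and -1.14 at 12 h, against -0.66 to -0.05 in the controls, and 0 of 7 had a fitted change above 0. That of the 7 neutrophil, macrophage and monocyte genes lay between 0.986 and 1.52 at 12 h, against 0.35 to 0.985 in the controls. The ranges thus all but touched, with 6 of 7 genes above 0 in fitted change. The A/J and C3H/HeMs arrays at 12 h are among the 4 that stood apart, and these marker levels are not given without them. The part of either list in the Pmaip1 values was not tested.

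**Figure D2:**
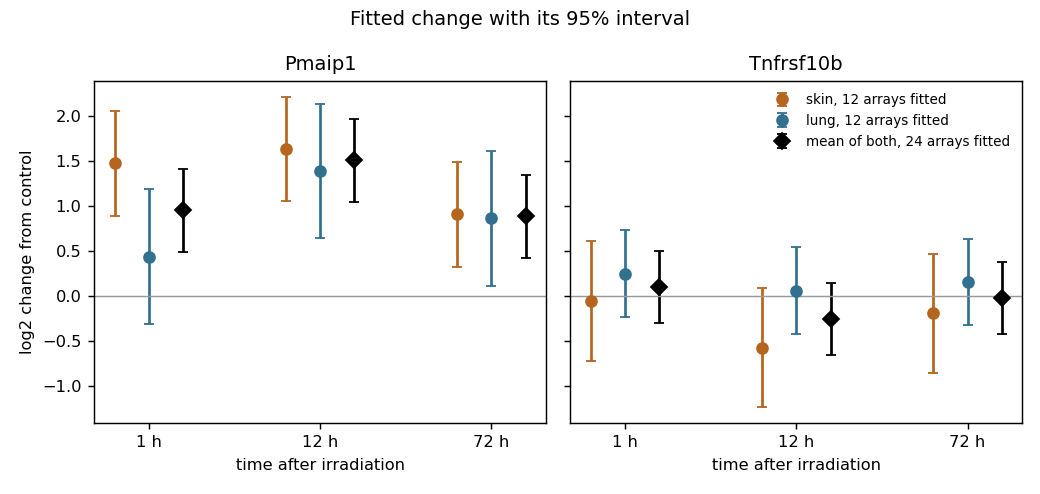
Fitted log2 change from control with its 95% interval at 1 h, 12 h and 72 h, for Pmaip1 (left) and Tnfrsf10b (right), in skin, in lung and as the mean of both tissues. The Pmaip1 interval lies above 0 at all times in skin and at 12 h and 72 h in lung, while every Tnfrsf10b interval spans 0.

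Over both tissues, the mean change of Pmaip1 passed the threshold at 12 h and over the 3 times, where no test in a single tissue had. A fit of all 24 arrays, added after the values of each tissue had been seen, tested the mean of the skin and lung changes. Its adjusted p covers the number of features and not the choice of this test. At 12 h this mean was 1.51 ± 0.22 on the log2 scale (SE, n = 6 irradiated and 6 control pools), a 2.84-fold higher level, and passed with an adjusted p of 0.00248 by limma, as did 0.411% of features in that direction. Over the 3 times it was 1.11 ± 0.18, a 2.17-fold higher level, with an adjusted p of 0.00845 by limma and 0.183% of features passing. The means of 0.95 ± 0.22 at 1 h (adjusted p = 0.271 by limma) and 0.88 ± 0.22 at 72 h (adjusted p = 0.206 by limma) did not pass, where 0.0114% and 0.149% of features did. In direction, Pmaip1 was above its own control in 18 of 18 irradiated arrays, which held for 16 features (0.183%), and in 14 of 14 without the 4 lung arrays (0.240%).

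Both calls were lost under several alternatives. At 12 h the adjusted p by limma was 0.102 with the set as a block, 0.0823 without the 4 arrays, 0.0727 without C57BL/6J and 0.135 without C3H/HeMs, with log2 changes between 1.28 and 1.66. Over the 3 times it was 0.136 with the block, 0.100 without the 4 arrays, 0.0516 without A/J, 0.290 without C57BL/6J and 0.308 without C3H/HeMs, and leaving out the A/J lung control (0.0759) or the A/J skin control (0.0514) also ended the call.

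The tissues differed most for Pmaip1 at 1 h, with changes of 1.15 to 1.75 in skin and 0.13 to 0.75 in lung. How many features had skin and lung changes apart in this way was not counted. The skin minus lung difference in log2 change was 1.03 ± 0.43 at 1 h, with a 95% interval of 0.11 to 1.95, an unadjusted p of 0.030 and an adjusted p of 1.00 by limma. It did not pass over all features, where 0.0% passed and 1.01% were higher at an unadjusted p under 0.05. Without the A/J lung array at 1 h it was 0.64, with an unadjusted p of 0.133 by limma. At 12 h the difference was 0.25 (interval -0.67 to 1.17) and at 72 h it was 0.04 (interval -0.88 to 0.97). Without the 4 lung arrays it was 0.61 at 12 h and 0.59 at 72 h, and with the set as a block 0.70 and 0.50, and none of these passed. The doses also differed, 30 Gy in skin and 10 Gy in lung, so tissue and dose cannot be told apart in these differences.

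Between times, Pmaip1 in lung was 0.95 higher at 12 h than at 1 h on the log2 scale (unadjusted p = 0.018, adjusted p = 0.252 by limma), where 0.0686% of features passed. That difference was 0.58 without the 4 lung arrays, 0.49 with the set as a block and 0.55 without the A/J array at 1 h. In skin it was 0.16 higher at 12 h than at 1 h (adjusted p = 0.903 by limma). The 72 h level differed from the 12 h level by -0.72 in skin (unadjusted p = 0.020, adjusted p = 0.677 by limma) and by -0.52 in lung (adjusted p = 0.992 by limma). None of these differences between times passed the adjusted threshold.

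Ordered by mean level, Pmaip1 stood lowest in untreated skin (0.11 ± 0.10, SD, n = 3 pools), followed by untreated lung (0.84 ± 0.55), skin at 72 h (1.01 ± 0.27) and lung at 1 h (1.28 ± 0.67). Skin at 1 h (1.58 ± 0.26), lung at 72 h (1.70 ± 0.52), skin at 12 h (1.74 ± 0.48) and lung at 12 h (2.23 ± 0.40) followed. Only untreated skin was separated from its neighbour in this order. All other neighbours overlapped, and steps between tissues also carry the change of dye.

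Tnfrsf10b passed no test, and its irradiated pools lay on both sides of their own controls. In A/J skin its levels were 0.30 in the control, -0.16 at 1 h, 0.31 at 12 h and 0.25 at 72 h. In C57BL/6J skin they were 0.23 in the control, 0.60 at 1 h, -0.38 at 12 h and -0.08 at 72 h. In C3H/HeMs skin they were 0.69 in the control, 0.61 at 1 h, -0.43 at 12 h and 0.46 at 72 h. Irradiated and control skin overlapped at every time, and Tnfrsf10b was above its own control in 2 of 9 skin pools. At 72 h it was below it in all 3 strains, by 0.045 to 0.30 on the log2 scale, as were 15.4% of features.

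The fitted log2 change of Tnfrsf10b in skin was -0.05 ± 0.30 at 1 h, -0.57 ± 0.30 at 12 h and -0.19 ± 0.30 at 72 h (SE, n = 3 pools per group). The smallest unadjusted p by limma, 0.084, was that of 12 h, with an adjusted p of 0.802. The lowest value behind it was the C3H/HeMs pool, at 0.46 times its control, and A/J stood at 1.01 times its control.

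In A/J lung the level of Tnfrsf10b was 0.61 in the control, 0.91 at 1 h, 1.02 at 12 h and 1.27 at 72 h. In C57BL/6J lung it was 0.51 in the control, 0.64 at 1 h, -0.0018 at 12 h and 0.10 at 72 h. In C3H/HeMs lung it was 0.60 in the control, 0.92 at 1 h, 0.88 at 12 h and 0.82 at 72 h. At 1 h all 3 irradiated pools lay above all 3 controls, as for 3.53% of features, by 1.10-fold to 1.25-fold over the own control. At 12 h and 72 h A/J and C3H/HeMs lay above their controls and C57BL/6J below.

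The fitted log2 change of Tnfrsf10b in lung was 0.25 ± 0.21 at 1 h, 0.06 ± 0.21 at 12 h and 0.16 ± 0.21 at 72 h (SE, n = 3 pools per group, adjusted p between 0.744 and 1.00 by limma). The direction at 12 h and 72 h turned with the set of arrays: without the 4 lung arrays that stood apart the log2 change was -0.45 at 12 h and -0.35 at 72 h, since only C57BL/6J was left there. Without those arrays Tnfrsf10b was above its own control in 3 of 5 lung pools, against 7 of 9 with them. The highest upper bound of the 6 intervals in skin and lung was 0.73, at 1 h in lung, so a 2-fold higher mean level lay outside each of them.

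The mean of the skin and lung changes of Tnfrsf10b was 0.10 at 1 h, -0.26 at 12 h and -0.02 at 72 h, and -0.06 ± 0.15 over the 3 times (interval -0.38 to 0.27, adjusted p = 0.970 by limma). The skin minus lung difference was -0.30 at 1 h, -0.63 at 12 h and -0.35 at 72 h, each with an interval that spanned 0. By mean level Tnfrsf10b ran from -0.17 ± 0.41 in skin at 12 h (SD, n = 3 pools) through 0.21 at 72 h, 0.35 at 1 h and 0.40 in the control of skin to 0.57 in the control of lung, 0.63 at 12 h, 0.73 at 72 h and 0.82 ± 0.16 at 1 h of lung. All neighbours in this order overlapped.

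Set side by side on the same arrays, the change of Pmaip1 exceeded that of Tnfrsf10b in 9 of 9 irradiated skin pools, by 0.93 to 2.73 (median 1.59), and in 8 of 9 lung pools, by -0.16 to 1.75 (median 0.62). The exception was A/J lung at 1 h. The genes were measured by different probes and share the control arrays, and this difference was not tested.

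No difference between strains in the response of either gene passed the threshold. The F test of strain by irradiation gave an adjusted p by limma of 0.999 for Pmaip1 in skin and 0.940 in lung, and of 0.999 for Tnfrsf10b in skin and 0.940 in lung, where 0.0% of features passed in skin and 0.0229% in lung. In lung the median change of Pmaip1 over 3 times was 1.54 for A/J, 0.75 for C57BL/6J and 0.56 for C3H/HeMs. In skin it was 1.15 for A/J, 1.21 for C57BL/6J and 1.52 for C3H/HeMs. The later lung times of A/J and C3H/HeMs are the 4 arrays that stood apart, and at 1 h, which holds none of them, the lung change was 0.13 for A/J, 0.75 for C57BL/6J and 0.44 for C3H/HeMs. The median change of Tnfrsf10b over 3 times in lung was 0.41 for A/J, -0.41 for C57BL/6J and 0.28 for C3H/HeMs. At 1 h alone its lung change was 0.29, 0.13 and 0.32 in the same order.

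**Figure D3:**
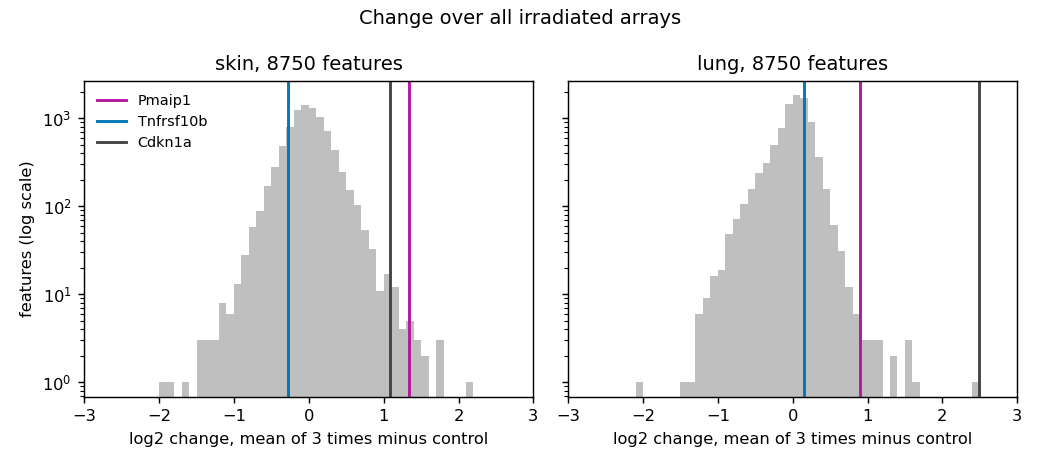
Distribution of the log2 change of irradiated against control arrays over 8750 features in skin (left) and lung (right), with the number of features on a log scale and lines for Pmaip1, Tnfrsf10b and Cdkn1a. Pmaip1 lies at 1.34 in skin and 0.89 in lung, beyond the 99th percentile of 0.81 in skin and 0.55 in lung, and Tnfrsf10b lies at -0.27 and 0.15, within the bulk.

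Cdkn1a, the p53 target that encodes the cell cycle inhibitor p21, gives the p53 response of the same pools a scale. Its log2 change in lung was 2.23 at 1 h, 2.71 at 12 h and 2.54 at 72 h, and it rose at each of them (adjusted p = 0.0133, 0.00158 and 0.00346 by limma). These calls were lost without the 4 lung arrays, in a fit of fewer arrays where the adjusted p by limma was 0.7004 at 1 h, 0.384 at 12 h and 0.306 at 72 h, with log2 changes of 2.23, 2.36 and 2.14. With the set as a block the adjusted p by limma was 0.00850, 0.0267 and 0.0954. The calls at 1 h and 72 h were also lost without any 1 of the strains, and that at 12 h without A/J or without C3H/HeMs. Leaving out some single arrays, among them each lung control, also ended the call at 1 h. In skin the change was 0.82, 1.51 and 0.92, without passing. Its skin minus lung difference was -1.42 at 1 h, where that of Pmaip1 was 1.03, and neither passed over all features. Over all irradiated pools Pmaip1 stood at 1.34 and Cdkn1a at 1.08 in skin, and Pmaip1 at 0.89 and Cdkn1a at 2.49 in lung.

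The wider p53 programme was counted in a list of arrest, repair and feedback targets, 13 of 25 measured. In lung 1 of 13 rose at 1 h, 3 at 12 h and 3 at 72 h, and in skin none passed by limma, with 5, 6 and 6 higher at an unadjusted p under 0.05. Of all features, 0.0114%, 0.114% and 0.0914% rose in lung, and 1.87%, 2.99% and 3.95% were higher in skin at the unadjusted threshold. The genes of the list that rose in lung at 12 h were Cdkn1a, Ccng1 (2.35), which encodes cyclin G1, and Trp53inp1 (1.89), a p53-induced nuclear protein. Without the 4 lung arrays none of the list passed by limma at any time, with 4, 5 and 5 higher at an unadjusted p under 0.05. With the set as a block 1, 2 and 0 passed, Trp53inp1 at 12 h (adjusted p = 0.153 by limma) no longer among them. Without A/J or without C3H/HeMs none passed, and without C57BL/6J only 2 at 12 h. In skin at 12 h Ccng1 stood at 2.02 with an adjusted p of 0.144 by limma, and at 1 h Mdm2, the ubiquitin ligase that limits p53, stood at 1.00. Polk, a translesion DNA polymerase, stood at 1.24 in skin at 72 h. In skin the median of the list was 0.48 at 1 h, 0.33 at 12 h and 0.52 at 72 h, and in lung it was 0.13, 0.38 and 0.15, where the medians of all features lay between -0.05 and 0.07. Of this list Cdkn1a, Ccng1, Trp53inp1 and Mdm2 shared with Pmaip1 the place above the own control in all 18 irradiated arrays.

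**Figure D4:**
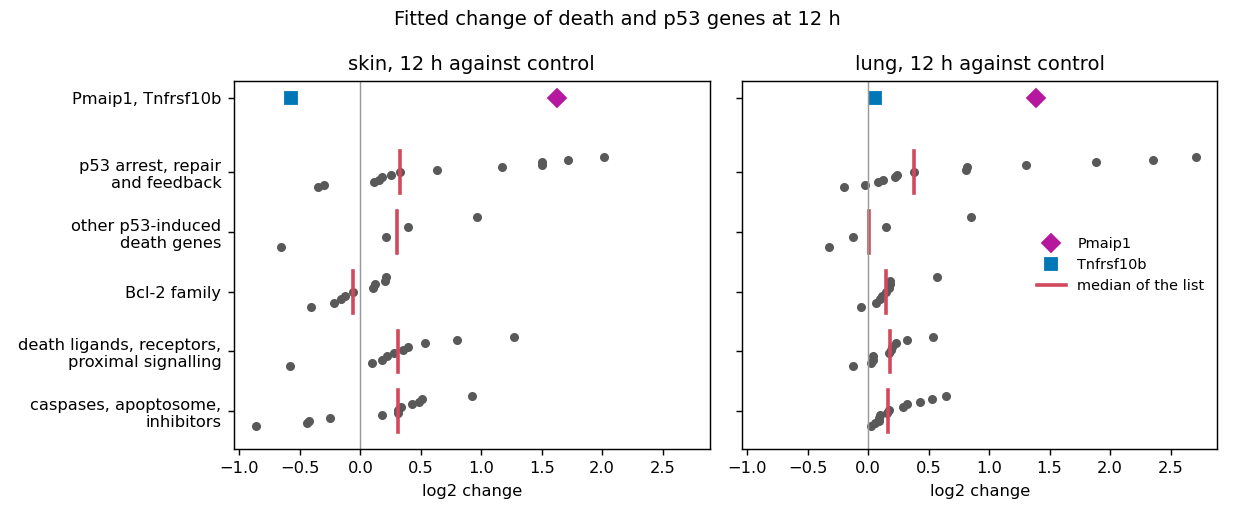
Fitted log2 change at 12 h in skin (left) and lung (right) of Pmaip1, Tnfrsf10b and the measured genes of 5 lists, with a point for each gene and a red bar for the median of each list. Pmaip1, at 1.63 in skin and 1.38 in lung, lies to the right of all measured Bcl-2 family genes, whose medians are -0.06 in skin and 0.14 in lung.

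Other p53-induced death genes were measured for 4 of 16 listed, and none passed at any time by limma. At an unadjusted p under 0.05, 1, 0 and 2 of them were higher in skin at 1 h, 12 h and 72 h, and 1 at each time in lung. Of all features, 1.87%, 2.99% and 3.95% were higher in skin and 1.27%, 6.98% and 6.72% in lung by this rule. Ei24, a p53-induced gene of the endoplasmic reticulum, stood at 0.85 in lung at 12 h (adjusted p = 0.116 by limma), 0.63 in lung at 72 h and 2.30 ± 0.82 in skin at 72 h. Tnfrsf23 was listed here although it is a decoy receptor for Trail in mouse. It was the gene counted in skin at 1 h and, with Ei24, at 72 h. In skin Tnfrsf23 stood at 0.72 at 1 h, 0.39 at 12 h and 0.77 at 72 h, where Tnfrsf10b stood at -0.05, -0.57 and -0.19. Igfbp3, which binds insulin-like growth factors, stood at 0.46 at 1 h and -0.32 at 12 h in lung.

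The Bcl-2 family, to which Noxa belongs, was counted in the same way. Of 9 measured Bcl-2 family genes of 20 listed, none passed in either tissue by limma, and at an unadjusted p under 0.05 there was 1, Bok in skin at 1 h (0.73), a Bax-like effector. In skin at 1 h 1.87% of all features were higher by this rule. Mcl1, the survival protein that Noxa binds, stood at -0.33 ± 0.24 in skin at 72 h. Bcl2l1, which encodes the survival protein Bcl-xL, stood at 0.47 at 1 h and 0.56 at 12 h in lung. Bid, the BH3-only protein that caspase-8 cleaves, stood at 0.34 in lung at 72 h and 0.21 in skin at 12 h. The largest list medians were 0.16 in lung at 72 h and -0.11 in skin at 72 h.

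Around the death receptor, 10 of 24 listed ligands, receptors and proximal signalling genes were measured, and none passed by limma. At an unadjusted p under 0.05, 1, 3 and 1 were higher in skin at 1 h, 12 h and 72 h, and 1 in lung at 12 h. Of all features, 1.87%, 2.99% and 3.95% were higher in skin at these times and 6.98% in lung at 12 h. Tnf, the inflammatory ligand, stood at 1.27 ± 0.42 in skin at 12 h and at -0.59 ± 0.32 in lung at 1 h. Tnfrsf1b, a receptor for it, stood at 0.80 in skin at 12 h. Traf2, another gene of the list, stood at -0.42 in skin at 72 h and -0.16 in lung at 1 h. In fitted change, 9 of 10 genes were above 0 in skin at 12 h and 8 of 10 below 0 in lung at 1 h. Tnfrsf1a, the Tnf receptor with a death domain, stood at 0.38 in skin at 1 h and 0.32 in lung at 12 h. Casp8, the initiator caspase of this route, stood at 0.25 in lung at 72 h. The median of the list at 12 h was 0.31 in skin and 0.18 in lung. The neutrophil, macrophage and monocyte genes given above were high in the same 12 h skin pools, and their part was not tested.

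Of 12 measured caspases, apoptosome genes and inhibitors of 22 listed, none passed by limma. At an unadjusted p under 0.05, 2, 2 and 1 were higher and 0, 1 and 1 lower in skin at 1 h, 12 h and 72 h, and 0, 3 and 1 were higher in lung. Of all features, 1.87%, 2.99% and 3.95% were higher in skin and 1.27%, 6.98% and 6.72% in lung by the same rule. In skin 3.71% were lower at 12 h and 3.44% at 72 h. Birc3, an inhibitor of apoptosis that NF-kappaB induces, stood at 0.93 in skin at 12 h. Birc5, which encodes survivin and is high in dividing cells, stood at -0.87 at 12 h and -1.07 at 72 h in skin, where genes of proliferating cells were low as well. Casp4, an inflammatory caspase, stood at 1.04 at 1 h and 0.86 at 72 h in skin. Casp12, a caspase of the endoplasmic reticulum, stood at 0.64 in lung at 12 h.

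The genes whose changes most resembled those of Pmaip1 over the 18 irradiated arrays, among 5711 named genes, were Pa2g4 (r = 0.82), Vkorc1l1 (0.77), Gpn3 (0.73), Elovl5 (0.72) and Itch (0.71). The first encodes an ErbB3-binding protein, Elovl5 a fatty acid elongase and Itch a ubiquitin ligase. Their own mean changes were small, between -0.09 and 0.41 in skin and between -0.02 and 0.17 in lung, so they shared the order of the arrays but not the size of the change. Over the 9 skin arrays Psmc1 (0.94), Elovl5 (0.92) and Stag2 (0.89) came first, and over the 9 lung arrays Rfc5 (0.97), Cul7 (0.97) and Heca (0.96). Pmaip1 correlated with Mdm2 at 0.59, with Cdkn1a at -0.18 and with Tnfrsf10b at -0.02 over the 18 arrays, which pool both tissues. Within a tissue the same pairs stood at 0.83, 0.42 and 0.25 in lung and at 0.72, 0.32 and 0.18 in skin.

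For Tnfrsf10b the most alike were Sbf2 (0.89), Rcn1 (0.89), Etl4 (0.89), Ube2e3 (0.87) and Yipf4 (0.87) over the 18 arrays. Rcn1 encodes a calcium-binding protein of the endoplasmic reticulum and Ube2e3 a ubiquitin-conjugating enzyme. Naa30, Cbll1 and Etl4 came first over skin alone (0.97, 0.95 and 0.94), and Coa3, Rab27b and Kcnk1 over lung alone (0.97, 0.96 and 0.95). No gene stood first for both members. These correlations describe 18 or 9 arrays that share 6 or 3 control arrays, and the highest of 5711 such values are given, so they carry no test.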

How the data were processed

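Total RNA of skin and lung was hybridised to 24 two-colour Agilent mouse cDNA arrays with 9275 probes, each against the reference RNA. The values deposited by the authors were log10 ratios, made with Agilent Feature Extraction per the submitters' processing notes, whose version and settings are not given in the sources used here. They were limited to ±2. Their direction, Cy5 over Cy3, was read from tissue markers together with the dyes in the labels. Lung values were turned in sign, and all were multiplied by 3.32 to log2 ratios and centred on the array median. As no scanner intensities were used, background and dye correction were not checked, and precision is limited by the number of arrays.

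Gene names came from the 2007 annotation of the platform. A single symbol was given for 6433 probes, several for 381 and none for 2461, and 6363 matched a RefSeq table by Entrez number with 0 symbols changed. Averaging probes of a gene gave 8750 features. limma 3.58.1 in R 4.3.3 was fitted per tissue (12 arrays, strain as a block, 6 residual degrees of freedom) and to all 24 arrays with strain blocks nested in tissue (12 residual degrees of freedom), with Benjamini-Hochberg adjustment over all features and a threshold of 0.05. The test of the mean of both tissues was added after values had been seen. The fits were tested on simulated data with independent noise, which held no differences between untreated strains and no lung arrays that stood apart.

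Members and gene lists were chosen with earlier results of these data known. From each list the text names members that passed, otherwise up to 2 with the smallest p per comparison, and the genes most like each member are the 5 highest correlations over 18 arrays and 3 per tissue. Ccng1 and Tnfrsf23 at further times, and values of genes already named, were added after they were seen. Replicate numbers stand for strains. Deviations of arrays of a strain from their group means correlated at -0.05 to 0.71 in lung and -0.05 to 0.68 in skin, and strain was kept as a design factor. Alternatives were the block, scaling, moderation, ratio limit, exact zeros, the set of lung arrays, each strain and each array left out.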

Additional observations from a re-analysis of the deposited data

How the results depend on the processing

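Of 1200 alternative values of 46 results, 1137 kept direction and side of the threshold, 52 changed sign and 11 lost the threshold, and none gained it. With no replicate block, that is without strain, no call of either gene changed: the mean of both tissues for Pmaip1 had an adjusted p of 0.00392 at 12 h and 0.0152 over the 3 times by limma. Each member had 1 probe, so probes were not compared.

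The mean of both tissues for Pmaip1 at 12 h (1.51) lost the threshold with the set of lung arrays as a block (1.28), without the 4 lung arrays (1.32), without C57BL/6J (1.66) and without C3H/HeMs (1.65). Over the 3 times (1.11) it lost it with the block or without the 4 arrays (0.96 each), without A/J (1.00), without C57BL/6J (1.14) and without C3H/HeMs (1.20). Leaving out each array gave 1.35 to 1.64 at 12 h and 1.02 to 1.19 over the 3 times, with 22 to 51 and 8 to 23 features passing. The number of features passing for this mean at 12 h, 39, was 9 with the block, 5 without the 4 arrays and 14, 15 and 13 without A/J, C3H/HeMs and C57BL/6J. It was 25 with no replicate block. Over the 3 times 17 passed, against 7 with the block, 4 without the 4 arrays and 3 to 7 without a strain, and at 72 h 17, against 5, 0 and 0 to 7. In lung 10 passed at 12 h and 10 at 72 h, against 6 and 0 with the block, 0 without the 4 arrays or with only the groups compared, 0 to 6 without a strain and 9 and 6 with no replicate block.

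Signs turned only for results that had passed no test, and the cause was not tested. For Tnfrsf10b, with the set as a block the log2 change was -0.45 at 12 h, -0.35 at 72 h and -0.18 over all irradiated lung pools, the skin minus lung difference at 72 h was 0.16, and Pmaip1 at 72 h against 1 h in lung was -0.031. Without the 4 arrays these were -0.45, -0.35, -0.18, 0.16 and -0.12. Without A/J, Tnfrsf10b was -0.11 at 12 h and -0.093 at 72 h in lung and 0.15 at 1 h in skin, and Pmaip1 was -0.072 at 72 h against 1 h in lung and -0.22 at 12 h against 1 h in skin. Without C57BL/6J, Tnfrsf10b was 0.035 at 12 h and 0.13 at 72 h against 1 h in lung, 0.13 at 72 h against 1 h in skin, 0.15 in the mean of both tissues at 72 h and 0.022 over the 3 times, and the Pmaip1 skin minus lung difference at 72 h was -0.19. Without C3H/HeMs, Tnfrsf10b was -0.051 in lung at 12 h, and the Pmaip1 skin minus lung difference was -0.026 at 12 h and -0.0021 at 72 h. Without centring, the mean of both tissues for Tnfrsf10b at 72 h was 0.030.

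Leaving out each array in turn also turned signs. For Tnfrsf10b in lung the ranges were -0.089 to 0.27 at 12 h, -0.028 to 0.36 at 72 h, -0.28 to 0.074 for 72 h against 1 h and -0.087 to 0.26 for 72 h against 12 h. In skin they were -0.29 to 0.27 at 1 h and -0.46 to 0.10 for 72 h against 1 h. The skin minus lung difference at 1 h ran from -0.54 to 0.021, and the mean of both tissues from -0.022 to 0.26 at 1 h, -0.11 to 0.086 at 72 h and -0.13 to 0.045 over the 3 times. For Pmaip1, skin at 12 h against 1 h ran from -0.095 to 0.43, and the skin minus lung difference from -0.0038 to 0.57 at 12 h and from -0.16 to 0.31 at 72 h.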
